A study of Mus musculus with 2 samples.

Results

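The HoxC cluster holds 9 homeobox genes, Hoxc4, Hoxc5, Hoxc6, Hoxc8, Hoxc9, Hoxc10, Hoxc11, Hoxc12 and Hoxc13, which lie side by side on mouse chromosome 15. They were taken by symbol from the authors' deposited table, where each has 1 RefSeq row, and they are 9 of the 17216 genes listed there. Their levels were read in 2 bulk RNA libraries of small intestine crypts, the pockets of gut epithelium where stem cells divide. The EedKO library came from C57BL/6 mice labelled AhCreEedfl/fl, in which Cre removes the floxed Eed gene, and the WT library from C57BL/6 mice labelled AhCre, which carry the same Cre and no floxed Eed allele in their label. All mice were injected 3 times with β-naphthoflavone, which induces Cre through the aryl hydrocarbon responsive promoter of AhCre, and crypts were collected 15 days later. Cre acts in the cells that respond to the ligand, and the labels give neither the age of the mice nor the number behind each library. With 1 library per genotype there is no replicate and no test of genotype, so every interval below covers counting error only.

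Hox genes encode transcription factors that tell cells of the embryo where they lie along the head to tail axis, and their order on the chromosome follows the order of their expression along the body. Where a Hox cluster is silent it is a classical domain of Polycomb repressive complex 2 (PRC2), which methylates lysine 27 of histone H3 and has Eed as a core subunit. Genes at the Hoxc4 end act further forward in the body, and genes at the Hoxc13 end further back. The comparison asks what happens to crypt transcripts when Eed is deleted.

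The 9 genes encode related homeodomains, so their transcripts are alike in part, and this bears on whether a read can be given to the right gene. The homeobox, the 180 bases that code for the DNA-binding homeodomain, is shown for the 3 members with the most EedKO reads and for Hoxc4, the member with the fewest. The sequences were cut from the GENCODE M21 transcripts that match the deposited RefSeq accessions (GRCm38 annotation, chromosome 15, plus strand). Capitals mark the 51 bases that code for homeodomain residues 42 to 58, the recognition helix.
Hoxc6: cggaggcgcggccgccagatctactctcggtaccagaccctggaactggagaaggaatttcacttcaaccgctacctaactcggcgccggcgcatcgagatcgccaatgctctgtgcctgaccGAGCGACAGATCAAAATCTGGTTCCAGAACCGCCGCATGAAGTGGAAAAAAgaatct
Hoxc9: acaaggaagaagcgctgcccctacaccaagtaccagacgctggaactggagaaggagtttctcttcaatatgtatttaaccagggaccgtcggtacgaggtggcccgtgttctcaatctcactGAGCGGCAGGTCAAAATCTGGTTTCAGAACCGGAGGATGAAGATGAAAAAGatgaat
Hoxc10: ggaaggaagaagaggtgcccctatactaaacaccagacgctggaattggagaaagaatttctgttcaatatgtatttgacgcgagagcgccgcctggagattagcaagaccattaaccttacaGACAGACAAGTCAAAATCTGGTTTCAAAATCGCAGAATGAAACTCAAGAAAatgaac
Hoxc4: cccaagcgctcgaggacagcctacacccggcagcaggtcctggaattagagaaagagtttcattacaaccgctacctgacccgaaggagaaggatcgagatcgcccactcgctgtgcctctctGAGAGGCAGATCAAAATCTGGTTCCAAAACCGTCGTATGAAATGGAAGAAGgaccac
Over the 36 pairs of members the homeoboxes were identical at 48.3% to 77.8% of bases, with a median of 59.7%. Hoxc5 and Hoxc6 were the most alike (77.8%), and Hoxc5 and Hoxc13 the least (48.3%). The longest run of identical bases between any 2 homeoboxes was 20. The sources used here give no read length, so shared stretches were counted for windows of 50 bases. In 6 of the 9 transcripts no 50-base window occurred in a GENCODE transcript of another gene. In Hoxc10, 119 of 1860 windows (6.40%) also lay in a transcript of Hoxc5. In Hoxc9, 34 of 2311 windows (1.47%) lay in transcripts of 447 other genes, of which only Hoxb6 and Hoxb9 are Hox genes. In Hoxc8, 12 of 1817 (0.660%) lay in transcripts of 521 other genes, with no Hox gene among them. The shared Hoxc10 windows belong to a second annotated Hoxc5 transcript that starts inside Hoxc10, not to the Hoxc5 transcript in the deposited table, so reads in that stretch are uncertain between the 2 genes. No exon of the 9 matched transcripts overlapped an exon of another member's matched transcript or of a gene annotated on the opposite strand.

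The libraries held 5918162 reads (EedKO) and 6970733 reads (WT). Eed itself had 183 reads in the EedKO library and 588 in the WT library, 3.08-fold lower (95% counting interval 2.61 to 3.66), and the labels do not say which exons were floxed. The other core subunits Suz12 (32 EedKO and 27 WT reads) and Ezh2 (12 and 25) had intervals of the ratio that included 1. Ezh1, the alternative catalytic subunit, had 783 EedKO and 983 WT reads, a ratio of 0.830 (0.755 to 0.913). All 10 markers of intestinal epithelium, Epcam and Vil1 among them, had reads in both libraries, and their ratio of summed reads was 0.942 (0.926 to 0.959). The lowest ratio among them was that of Cdx2, the intestinal homeobox factor, with 1015 EedKO and 1964 WT reads. All these ratios use the authors' scaling. Scaling by library totals raises log2 ratios by 0.18, which takes the epithelial ratio of summed reads above 1. It also makes the Ezh1 interval include 1, so the direction of these 2 ratios depends on the scaling. In bulk RNA, fewer cells of a type and less RNA per cell cannot be told apart.

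The HoxC genes were close to silent in WT crypts and all 9 had reads in EedKO crypts. Summed over the cluster, 418 reads were counted in the EedKO library and 2 in the WT library. Scaled to the library totals, this is 70.6 RPM (exact Poisson 95% interval 64.0 to 77.7) in the EedKO library and 0.287 RPM (0.0347 to 1.04) in the WT library. After the authors' scaling the ratio of summed reads was 218, with a wide counting interval of 59.9 to 1805 because it rests on 2 WT reads. The lowest EedKO value of a member, 9 reads, was above the highest WT value, 1 read.

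**Figure D1:**
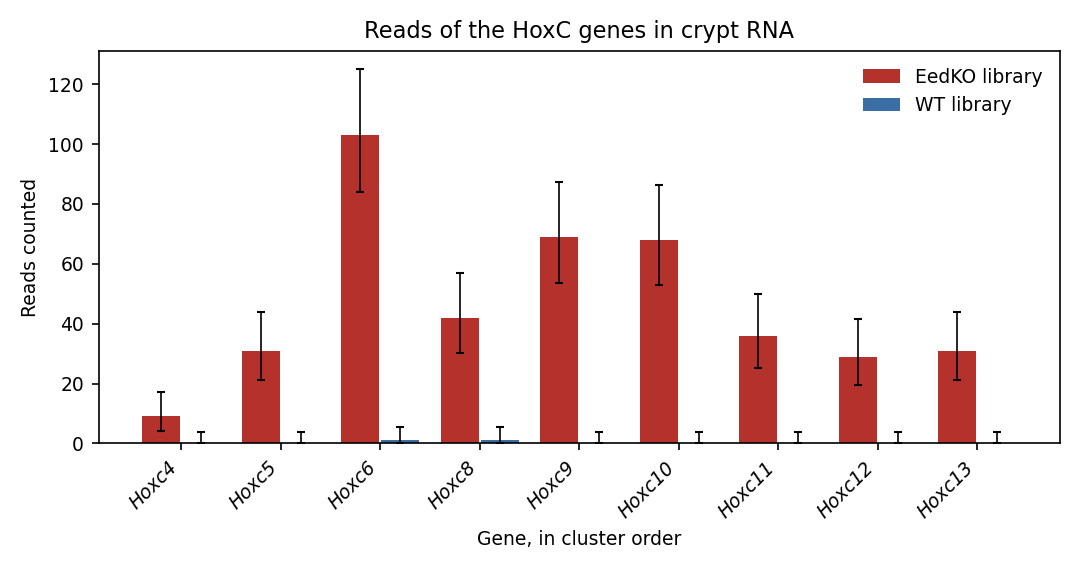
Reads of each HoxC gene in the EedKO library (red, left bar) and the WT library (blue, right bar), with genes in cluster order and exact 95% Poisson intervals as error bars. EedKO bars run between 9 (Hoxc4) and 103 (Hoxc6) reads, while WT bars are at 0 or 1.

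The anterior members differed most among themselves. Hoxc4, which in mouse B cells takes part in switching on antibody gene mutation, had 9 reads in the EedKO library and 0 in the WT library, at least 3.13-fold higher if the WT library is set to a floor of 3 reads and the EedKO reads are taken as counted. Hoxc5 had 31 reads in the EedKO library and 0 in the WT library, at least 10.8-fold higher. Hoxc6, a gene of the brachial and upper thoracic body, had 103 reads in the EedKO library and 1 in the WT library, a ratio of 107 (18.8 to 4281). Hoxc6 thus had the most EedKO reads of the cluster and Hoxc4 the fewest, although they are separated by Hoxc5 alone.

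The central members Hoxc8, Hoxc9 and Hoxc10 pattern the thoracic and lumbar skeleton and its motor neurons. Hoxc8 had 42 reads in the EedKO library and 1 in the WT library, a ratio of 43.8 (7.44 to 1770). Hoxc9 had 69 reads in the EedKO library and 0 in the WT library, at least 24.0-fold higher. Hoxc10, which acts with Hoxa10 and Hoxd10 in the lumbar spinal cord and hindlimb, had 68 reads in the EedKO library and 0 in the WT library, at least 23.6-fold higher. Hoxc9 and Hoxc10 differed from each other by 1 read.

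The posterior members were also detected in the EedKO library. Hoxc11 had 36 reads in the EedKO library and 0 in the WT library, at least 12.5-fold higher. Hoxc12 had 29 reads in the EedKO library and 0 in the WT library, at least 10.1-fold higher. Hoxc13, a regulator of hair and nail keratins, had 31 reads in the EedKO library and 0 in the WT library, at least 10.8-fold higher. Exact 95% lower limits, which also take in the counting error of the EedKO reads, are below these floor-based values: 2.06 for Hoxc4, and 7.68 (Hoxc12) to 19.0 (Hoxc9) for the other 6 members with no WT read. Hoxc11, Hoxc12 and Hoxc13 belong to the end of the cluster that in the embryo is used in the tail, the distal limb and the skin appendages.

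Reads per kilobase of transcript allow the members to be ranked within the EedKO library. Hoxc6 stood first with 65.1 EedKO reads per kilobase (53.2 to 79.0), and its interval did not overlap that of the next gene. Hoxc10 (35.6 reads per kilobase, 27.7 to 45.2), Hoxc9 (29.1, 22.6 to 36.8), Hoxc12 (28.1, 18.8 to 40.4) and Hoxc8 (22.5, 16.2 to 30.4) followed with overlapping intervals. Hoxc11 had 17.8, Hoxc13 12.6 and Hoxc5 10.6 EedKO reads per kilobase, each with an interval that overlapped its neighbour's. Hoxc4 was last with 4.54 (2.08 to 8.62), a 14.4-fold lower level than Hoxc6. Level per kilobase did not follow position in the cluster: Hoxc12, second from the Hoxc13 end, stood above Hoxc5 and Hoxc4 at the other end. Its place above Hoxc5 rests on transcript length, as Hoxc12 had 29 EedKO reads over 1031 bases and Hoxc5 31 over 2923. The lengths are those of GENCODE M21 transcripts, while the authors' processing used mm9, so the ranks depend on these transcript models.

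The members were set against all genes by 2 rules of size. The first calls a gene higher when log2 of the EedKO value plus 1 over the WT value plus 1 is at least 1 and the mean of both normalized values is at least 20. It called 4 of the 9 members higher, Hoxc6, Hoxc8, Hoxc9 and Hoxc10, beside 11.2% of the 10879 genes with such a mean called higher and 3.58% called lower. The other 5 members fell under the mean of 20, with means of 5.59 (Hoxc4) to 19.4 (Hoxc11), and were not called for that reason. As the 4 passed only through their EedKO reads, nothing is read from their count. The second rule has no filter and calls a gene higher when the whole 95% counting interval of its ratio lies above 2. It called 9 of 9 members higher, beside 6.52% of all 17216 genes, and 0 lower beside 1.15%. Among the 4459 genes with 9 to 104 reads over both libraries, the range of the members, it called 13.2% higher and 1.1% lower. Having no WT read and more than 3 EedKO reads was shared by 7 of 9 members and by 2.38% of all genes. Hoxc4 was the nearest to that threshold, with an exact lower limit of 2.06, and the other 8 members had lower limits of 7.44 or more.

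On the log2(value + 1) scale, which understates differences of low genes, the members' log2 ratios ran between 2.50 (Hoxc4) and 5.19 (Hoxc9), with a median of 4.09. With the 7 members at 0 WT reads set to their bound the median was 3.64. Over all genes with a row the median log2 ratio was -0.0043, and over the 10879 genes with a mean of at least 20 it was -0.11. A log2 ratio as high as that of Hoxc6, 5.18, was reached by 66 of those 10879 genes. Hoxc6 is among them only through its EedKO reads, so nothing is read from this rank. In the authors' deposited table, Hoxc6 had an adjusted p of 0.0254, Hoxc9 of 0.138 and Hoxc10 of 0.149, while the other 6 members had an adjusted p of 1. The authors' deposited table thus called 1 member at 0.05, beside 0.89% of its 18766 rows called higher, and 0 members beside 0.0853% called lower. An exact binomial test on the reads called the 4 members with a mean of at least 20 higher, beside 22.9% of the 10879 genes called higher and 37.3% lower. Nothing is read from this count either, since the 4 passed the mean only through their EedKO reads. Both sets of calls compare 2 libraries, not the genotypes.

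**Figure D2:**
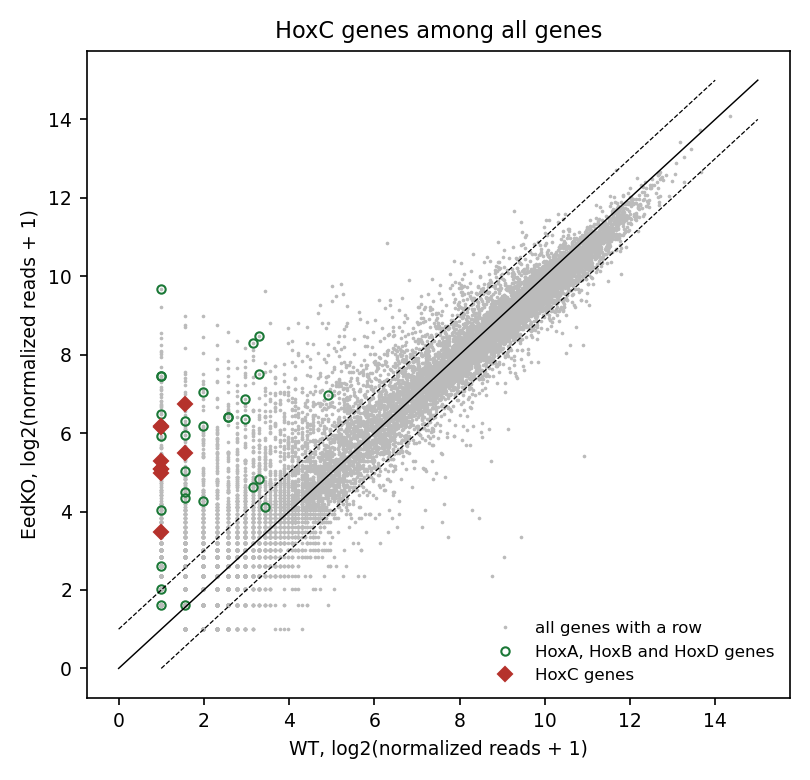
Normalized reads of every gene with a row on the log2(value + 1) scale, WT on the horizontal and EedKO on the vertical axis, with equality as a solid line and 2-fold differences as dashed lines. All 9 HoxC genes (red diamonds, 2 of them at the same point) sit at the left edge, where WT values stand for 0 or 1 read, and above the upper dashed line.

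The genes next to the cluster were read for comparison, and none of the nearest 10 was called. Beside Hoxc13, Calcoco1 had 313 EedKO and 266 WT reads, a ratio of 1.23 (1.04 to 1.45), and Atp5g2, a subunit of the mitochondrial ATP synthase, had 656 EedKO and 640 WT reads. Beside Hoxc4, Smug1, a DNA repair glycosylase, had 372 EedKO and 406 WT reads, a ratio of 0.955 (0.827 to 1.10). Of the 5 coding genes with a row on each side, 0 of 10 passed either rule. Over all genes the size rule called 11.2% higher and 3.58% lower, and the interval rule 6.52% and 1.15%. As 0 of 10 is near these shares, nothing is read from the count. The ratio of summed reads of these 10 neighbours was 0.964 (0.919 to 1.01) under the authors' scaling. Their lowest log2 ratio was that of Cbx5, the heterochromatin protein HP1 alpha, with 14 EedKO and 29 WT reads, and their highest that of Nfe2, with 4 EedKO reads and 1 WT read. These neighbours, unlike the members, were mostly well expressed in WT crypts.

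**Figure D3:**
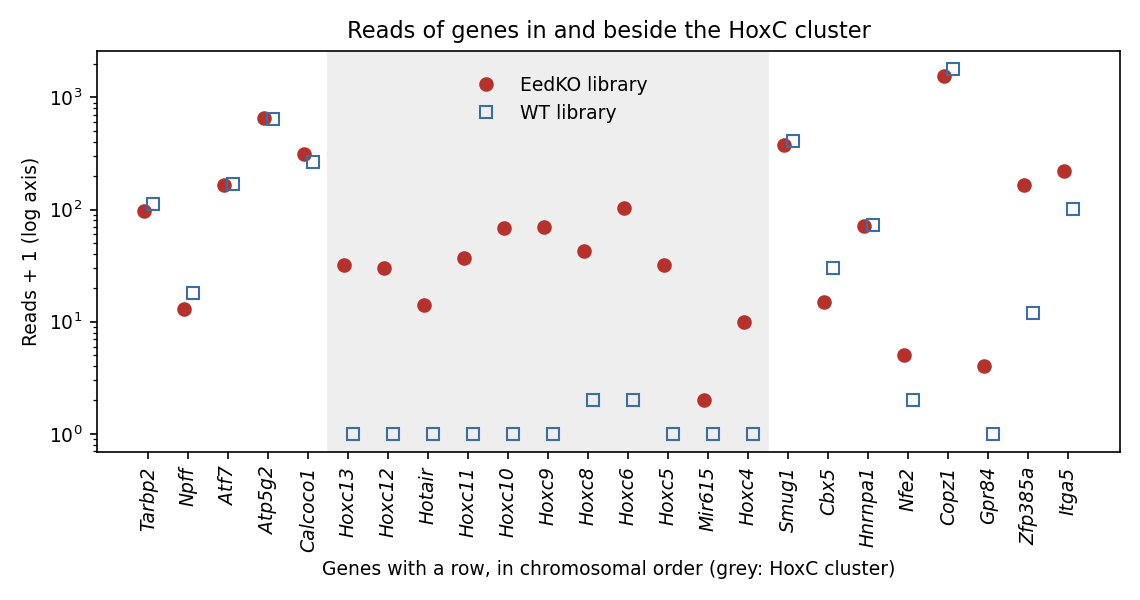
Reads plus 1 on a log axis for genes with a row in chromosomal order, with the HoxC cluster in grey, EedKO as red circles and WT as open blue squares. Inside the cluster WT points lie at 0 or 1 read and EedKO points of the 9 members at 9 to 103 reads, while the points of the nearest genes on both sides, such as Calcoco1 and Smug1, lie close together. Further out on the Hoxc4 side, the points of Zfp385a (166 EedKO and 11 WT reads) and Itga5 (221 and 100) lie apart.

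Noncoding RNAs of the cluster were sparse. Hotair, a long noncoding RNA made from the strand opposite to the Hox genes between Hoxc11 and Hoxc12 and known in human cells for its contact with PRC2, had 13 reads in the EedKO library and 0 in the WT library, at least 4.52-fold higher against the floor, with an exact lower limit of 3.18. At 6.48 EedKO reads per kilobase (3.45 to 11.1) Hotair was below both neighbours, Hoxc11 and Hoxc12, and its interval did not overlap theirs. Mir615, which lies in the Hoxc5 intron, had 1 read in the EedKO library and 0 in the WT library, too few for a ratio. mRNA libraries of this kind do not capture mature microRNAs, so a read in such a row belongs to a longer transcript. Of the cluster's other microRNA, Mir196a-2 between Hoxc10 and Hoxc9, no row was analysed here.

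The cluster's microRNAs are shown because miR-196a is known to repress Hox genes, Hoxc8 among them. The mature sequences are from RefSeq (GRCm38.p6, plus strand), with the seed, bases 2 to 8, in capitals. The first lies at chr15:102973365-102973386 and the second at chr15:103014969-103014990.
miR-196a-5p: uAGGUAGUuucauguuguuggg
miR-615-3p: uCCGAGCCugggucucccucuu
The letters ACTACCT, which pair with the miR-196a seed, were searched on the sense strand of the 3′ UTR of the 9 matched transcripts. They occurred in Hoxc8 alone, at 2 places, of which the second reads as follows with the match in capitals.
Hoxc8 site: aataaatctttaacatACTACCTa
The last 966 bases of a transcript, the length of the Hoxc8 3′ UTR, held these letters in 4.89% of 40555 GENCODE coding transcripts of at least that length. Hoxc8 had 22.5 EedKO reads per kilobase, between Hoxc12 and Hoxc11 in the order.

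Other Hox clusters were read in the same libraries for comparison. The HoxC genes had 418 EedKO reads and 2 WT reads. The 11 HoxA genes had 677 EedKO and 60 WT reads, a ratio of 11.8 (9.02 to 15.6), the 10 HoxB genes 1770 and 36 reads, a ratio of 51.2 (36.9 to 73.4), and the 9 HoxD genes 716 and 12 reads, a ratio of 62.2 (35.4 to 121). The HoxC interval, 59.9 to 1805, lies above that of HoxA and overlaps those of HoxB and HoxD. Of the members, 7 of 9 HoxC genes had no WT read, against 3 of 11 HoxA, 3 of 10 HoxB and 4 of 9 HoxD genes. At this depth 0 WT reads cannot be told from up to 3. Hoxd3, Hoxd8 and Hoxd10 had 1 WT read each and Hoxd9 had 2, so these counts do not set HoxC apart from HoxD. The interval rule called 9 of 9 HoxC, 9 of 11 HoxA, 8 of 10 HoxB and 6 of 9 HoxD genes higher, and the median log2 ratios were 4.09, 2.92, 4.06 and 4.20 in that order of clusters. The difference between clusters in the ratio was not tested.

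Within paralogue groups, the sets of genes that share a position in different clusters, the HoxC gene had the lowest EedKO level per kilobase in 4 of 9 groups and the highest in 1. Each group holds only 2 to 4 genes with a row, and these ranks were not tested. In group 13, Hoxc13 had 12.6 EedKO reads per kilobase (8.56 to 17.9), below Hoxa13 with 53.5 (41.7 to 67.6), Hoxd13 with 68.5 (58.6 to 79.6) and Hoxb13 with 364 (339 to 390). In group 5, Hoxc5 with 10.6 (7.21 to 15.1) was below Hoxa5 with 43.7 (34.7 to 54.2) and Hoxb5 with 59.6 (49.1 to 71.7). In group 4, Hoxc4 with 4.54 overlapped Hoxa4 with 9.41 (5.27 to 15.5). In group 8, Hoxc8 overlapped both Hoxd8 with 28.9 (22.7 to 36.1) and Hoxb8 with 32.6 (26.1 to 40.3). Hoxc6 lay between Hoxa6 with 19.5 (11.3 to 31.1) and Hoxb6 with 133 (114 to 154). Hoxc12 was the gene that stood first in its group of 2, with 28.1 EedKO reads per kilobase, while Hoxd12 had 1 EedKO read.

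**Figure D4:**
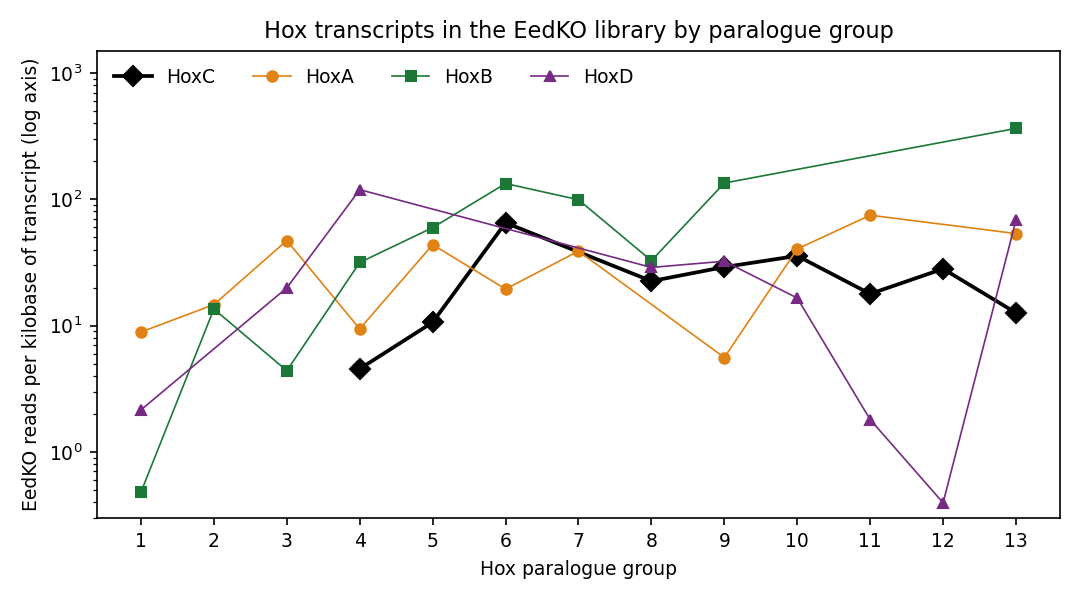
EedKO reads per kilobase of transcript (log axis) for every Hox gene with a row, by paralogue group, with lines joining the genes of a cluster. HoxC genes (black diamonds) peak at Hoxc6 with 65.1 and lie at the bottom of groups 4, 5, 8 and 13.

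Hox proteins bind DNA with TALE homeodomain partners, the Pbx, Meis and Pknox families. Of 9 such genes 6 had a row, and 0 of these were called by either rule. Over all genes the size rule called 11.2% higher and 3.58% lower, and the interval rule 6.52% and 1.15%. A count of 0 of 6 is near these shares, so nothing is read from it. Pbx2 had 591 EedKO and 586 WT reads, a ratio of 1.05 (0.936 to 1.18). Meis1 had 6 EedKO reads and no WT read, with an exact lower limit of the ratio of 1.23. Pbx2 was thus present in both libraries, at 193 EedKO and 191 WT reads per kilobase.

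Keratin genes of the hair programme, for which Hoxc13 is known, were too sparse to compare. Of the 15 genes of that list 8 had a row, of which 1 reached the mean of 20 and 4 had at most 3 reads in both libraries. The interval rule called 0 of the 8 in either direction, beside 6.52% of all 17216 genes called higher and 1.15% lower. Dsg4, a hair desmosome cadherin and the gene that reached that mean, was called lower by the size rule, beside 3.58% of 10879 genes. It had 16 EedKO and 44 WT reads, 2.64-fold lower (1.46 to 5.01). The keratin with the most EedKO reads, Krt36, had 12 reads in the EedKO library and 1 in the WT library, a ratio of 12.5 (1.85 to 535). At 41 EedKO and 56 WT reads in all, the list holds too few reads to say whether most of its genes differed.

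The genes outside the Hox clusters with values nearest to those of Hoxc6 were Irx5, Lgi2, Fam124a, Susd4 and Gata2. Likeness was the distance between log2(value + 1) values over the 2 libraries, which was 0.0278 for Irx5 and 0.175 for Gata2. Irx5, a homeobox factor of another family, had 101 EedKO reads and 1 WT read, and Gata2, a zinc finger factor of blood progenitors, had 91 and 1. With 2 libraries, likeness says no more than that these counts are close.

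Markers of other cell types also differed between the libraries. Of 10 fibroblast markers, 5 were called higher by the interval rule, beside 6.52% of all 17216 genes. These were Col1a1 at 155 EedKO reads and 1 WT read, Col1a2 at 124 and 0, Col3a1 at 198 and 6, Col6a2 at 36 and 0, and Lum at 16 and 0. In the rest of the list, Pdgfra (0 EedKO reads and 1 WT read) and Dcn (1 and 0) were near 0 in both libraries. Dpt had 7 EedKO reads and 1 WT read, and Vim 210 and 265. The summed fibroblast list had 1890 EedKO and 2464 WT reads, of which Fbln1 alone gave 1143 and 2190. The 9 exocrine pancreas genes with a row, of 11 listed, were all called higher by both rules, with 1888 EedKO and 158 WT reads in sum, a ratio of 12.5 (10.6 to 14.7). Smooth muscle markers summed to 124 EedKO and 122 WT reads, of which Tagln alone gave 100 and 113. The other 5, Acta2 and Des among them, had 1 to 8 EedKO reads and 0 to 4 WT reads each, and the list's median log2 ratio was 0.82. Summed reads of immune markers were 311 in the EedKO and 269 in the WT library, of endothelial markers 90 and 40, and of enteric neuron and glia markers 131 and 61. The interval rule called 1 of 8 immune markers higher, Csf1r (94 EedKO and 28 WT reads), and 1 of 4 endothelial markers, Kdr (21 and 2). Of 6 enteric neuron and glia markers it called 2 higher, Ret (68 and 20) and Uchl1 (17 and 2), and it called no marker of these lists lower. Of the listed markers, 6 of 7 had a row for smooth muscle, 4 of 6 for endothelium and 6 of 9 for enteric neurons and glia. The part of these other cell types in the HoxC reads was not tested.

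**Figure D5:**
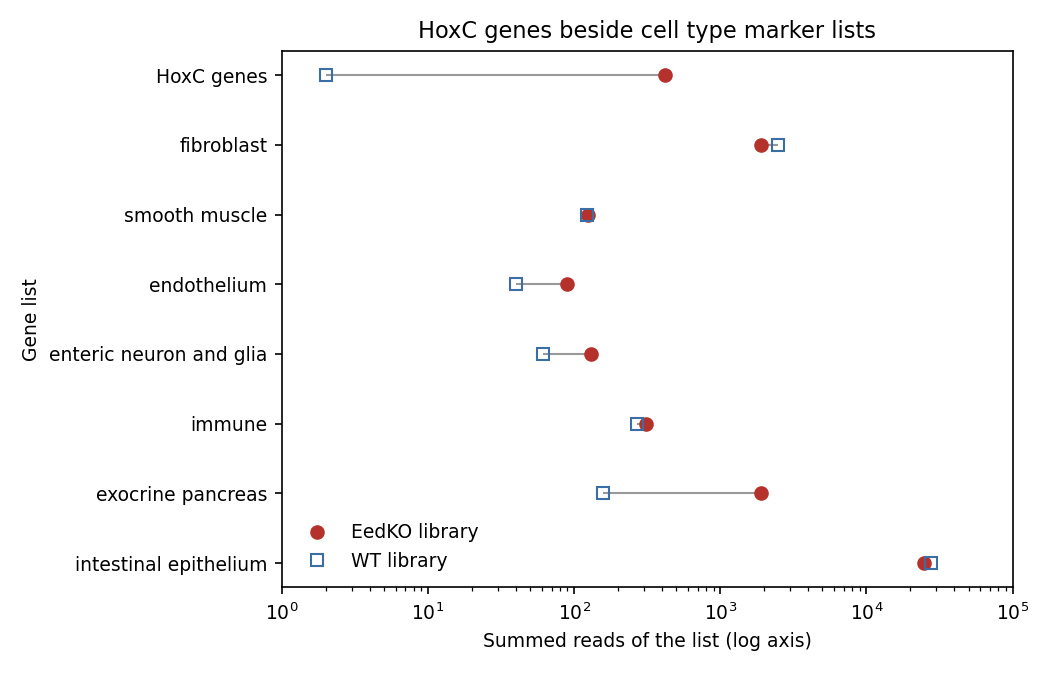
Summed reads (log axis) of the HoxC genes and of 7 cell type marker lists, EedKO as red circles and WT as open blue squares, joined by a line. The HoxC genes lie at 418 and 2 reads and exocrine pancreas at 1888 and 158, while the sums of intestinal epithelium (24945 and 27589) and of smooth muscle (124 and 122, mostly Tagln) lie close together.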

How the data were processed

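Crypt RNA became mRNA libraries through the TruSeq RNA kit, version 2, as the labels' protocols say. The submitters' processing notes name TopHat, the mm9 genome and DESeq. The sources used here give no counting tool and no strand setting. The authors deposited 1 table with a normalized signal per library, the fold change (a ratio), its log2 and p-values. All values (100%) of each library were whole multiples of its lowest value within 1e-06, and no row was at 1 step in both, so reads were taken as the recovered steps minus 1. An exact binomial test on these reads, added as an alternative, compares the 2 libraries: with Benjamini-Hochberg adjustment at 0.05 it called 2487 genes higher and 4062 lower of 10879.

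Rows were joined to RefSeq genes (GRCm38.p6) by accession, which matched 98.6%; the row with the highest mean stood for a gene, and as builds differ, coordinates are printed for the microRNA sequences alone (GRCm38.p6). GENCODE M21 transcript lengths covered 97.7% of rows. Intervals of ratios are exact Clopper-Pearson intervals given the summed reads, those of levels exact Poisson intervals (95%). Without molecular identifiers, PCR copies are counted as reads, so these intervals and floors hold for counting error alone. Where a library has 0 reads, a bound replaces the ratio, with 3 reads set as that library's floor. Members, lists and the naming rule (all members, cluster noncoding RNAs, 5 flanking coding genes a side, fixed lists, 5 genes most like the most abundant member) were chosen with earlier results of these data known. The functions were tested on simulated data. Software was SciPy 1.17.1, NumPy 2.4.6, Matplotlib 3.10.9 and pandas 2.3.3 under Python 3.11.15.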

Additional observations from a re-analysis of the deposited data

How the results depend on the processing

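No paired analysis was possible because each genotype has 1 library, and for the same reason no replicate could be left out. All 9 members stayed above 0 on the log2 scale under each alternative run. With 9 to 103 EedKO reads and 0 or 1 WT reads, none of these alternatives could change that sign. The filters and fold thresholds leave the ratio itself as it is, so nothing is read from this. The size rule depends on its filter: 9 members were called with no filter (beside 16.4% of all genes), 1 when the mean had to reach 50 and 0 when it had to reach 100. The shares of all genes at means of 50 and 100 were not computed. Members reach such means only through their EedKO reads, so nothing is read from these counts. The size rule called 5 under scaling by library totals (beside 1444 of 10889 genes) or by the median of ratios (1438 of 10889), when Hoxc11 crosses the mean of 20. For all genes that rule called 1217 higher, against 2823 with no filter, 778 and 477 for means from 50 and from 100 up, 1837 at 1.5-fold, 568 at 4-fold and 2487 by the exact binomial test on reads. Among genes called in either direction, 75.7% were higher under the authors' scaling and 85.9% under library totals, a scaling that moves log2 ratios by up to 0.18. The members' median log2 ratio was 2.12 with a pseudocount of 10, at which Hoxc4 fell under the threshold (0.88), and 5.03 with 1 read taken off every value, an alternative chosen after seeing the data. At 4-fold the interval rule called 8 members, all but Hoxc4. The share of all genes called by that rule at 4-fold was not computed, so nothing is read from this count. The ratio of summed reads, 218, was 246 under library totals and rests on 2 WT reads. At this depth a member with 0 WT reads cannot be told from one with up to 3.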

Other observations

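Further from the cluster on the Hoxc4 side, and named after their values were seen, Zfp385a had 166 EedKO and 11 WT reads, a ratio of 15.7 (8.57 to 32.1), and the fibronectin receptor subunit gene Itga5 had 221 and 100 reads, a ratio of 2.30 (1.81 to 2.95). Between these and Copz1 lies Gpr84, with 3 EedKO reads and no WT read. Mir196a-1, in the HoxB cluster and with the same mature miR-196a-5p as Mir196a-2, had 28 EedKO reads and no WT read, at least 9.73-fold higher against a floor of 3 reads (exact lower limit 7.40), and was also named after its values were seen.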
